A study of Mus musculus with 12 samples.

Results

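The lipid droplet coat and lipolysis genes examined here were *Plin1*, *Plin2*, *Plin3*, *Plin4*, *Plin5*, *Cidec*, *Pnpla2*, *Abhd5*, *Lipe*, and *Mgll*, 10 of the 49585 genes counted in the mouse adrenal cortex. They were chosen by symbol, and each was matched to 1 Ensembl gene. Cortical RNA came from 12 mice and was sequenced as 1 library per mouse. Of these, 4 mice received a low-fat diet (LFD, which the labels call a normal diet) with 10% of its energy as fat, 4 a high-fat diet (HFD) with 60%, and 4 a HFD with icosapent ethyl, an ethyl ester of the omega-3 fatty acid eicosapentaenoic acid. The methods describe male wild-type C57BL/6J mice that were 6 weeks old at the start and were fed for 20 weeks, with icosapent ethyl in the HFD during the last 10 weeks. The labels instead give the genotype Fads2-/- for all 12 mice. *Fads2*, which encodes a fatty acid desaturase, was counted at 452 to 2181 CPM (reads relative to library size after TMM scaling) in all of them. The paper reports the loss of *Fads2* mRNA and protein in adrenal glands of its knockout mice, which were females on other diets. These counts therefore go against the label. All 12 mice share that label, so the comparisons below are between diets whichever genotype the mice had.

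Lipid droplets are stores of neutral lipid bounded by a single phospholipid layer and coated with proteins, of which the perilipins are the best known. The coat governs the access of lipases to the core. Stored triglyceride is cleaved stepwise by adipose triglyceride lipase, hormone-sensitive lipase, and monoacylglycerol lipase, and the protein encoded by *Abhd5* activates the first of them. In adrenocortical cells the droplets hold mainly cholesteryl esters, and hormone-sensitive lipase is known there as the neutral cholesteryl ester hydrolase that frees cholesterol for steroid synthesis.

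The counts on genes summed to 34785979 to 67295963 per mouse, and every member was counted in every mouse, from 45 reads of *Cidec* to 23549 reads of *Plin2*. The tissue carried the markers of adrenocortical cells, with a summed level of 8 genes between 43620 and 101700 CPM. It also held chromaffin cells of the medulla (6 genes, 4963 to 17610 CPM in LFD mice, 2425 to 7808 in HFD mice, and 4417 to 8560 in icosapent ethyl–treated mice) and macrophages (8 genes, 623 to 953, 354 to 442, and 408 to 630 CPM). White adipocyte markers other than the members summed to 180 to 252 CPM in LFD, 236 to 368 in HFD, and 197 to 319 in icosapent ethyl–treated mice, and brown adipocyte markers to 7.0 to 34.2 CPM. *Fabp4* was the largest part of the white adipocyte sum, with 94.2 to 154 CPM in LFD mice, where the adipocyte gene *Adipoq* had 1.16 to 11.1 CPM. LFD replicate 7 had the least *Adipoq*, yet its sum of 219 CPM was above the 180 CPM of LFD replicate 5. That sum is therefore not a clear measure of adipocytes. In such bulk RNA, fewer cells of a type and less RNA per cell cannot be told apart.

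The promoters of *Plin2*, *Plin4*, and *Lipe* are shown because these were the members that passed the test between the diets. Each is the 250 bases before a transcription start annotated by RefSeq on GRCm38.p6, written 5′ to 3′ on the minus strand, where all of these genes lie. They cover chr4:86670060-86670309 for *Plin2* and chr17:56109783-56110032 for *Plin4*, and for *Lipe* chr7:25395988-25396237 before its upstream start and chr7:25390113-25390362 before its downstream start. Capitals mark matches to AGGTCA on either strand, the core letters bound by many nuclear receptors.
Plin2: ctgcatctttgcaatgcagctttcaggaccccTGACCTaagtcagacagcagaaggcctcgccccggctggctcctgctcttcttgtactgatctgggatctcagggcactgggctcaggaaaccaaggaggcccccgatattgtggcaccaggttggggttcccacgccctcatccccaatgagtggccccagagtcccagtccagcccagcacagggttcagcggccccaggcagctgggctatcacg
Plin4: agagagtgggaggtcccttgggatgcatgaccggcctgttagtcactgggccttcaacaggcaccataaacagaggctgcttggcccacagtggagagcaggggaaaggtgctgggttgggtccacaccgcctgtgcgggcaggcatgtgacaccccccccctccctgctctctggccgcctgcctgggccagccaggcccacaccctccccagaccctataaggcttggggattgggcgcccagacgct
Lipe upstream start: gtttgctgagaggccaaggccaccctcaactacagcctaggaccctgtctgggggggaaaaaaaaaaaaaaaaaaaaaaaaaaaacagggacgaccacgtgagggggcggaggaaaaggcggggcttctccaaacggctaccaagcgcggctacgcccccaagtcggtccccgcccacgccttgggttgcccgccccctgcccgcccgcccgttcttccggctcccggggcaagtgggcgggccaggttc
Lipe downstream start: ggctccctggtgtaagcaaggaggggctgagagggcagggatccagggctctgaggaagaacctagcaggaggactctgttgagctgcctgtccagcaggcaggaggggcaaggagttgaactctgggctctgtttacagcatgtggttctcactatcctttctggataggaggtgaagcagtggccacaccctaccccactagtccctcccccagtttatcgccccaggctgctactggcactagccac

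Of these promoters, only that of *Plin2* held AGGTCA, on the opposite strand, at positions −218 to −213 from the start. Across the 14 promoter windows of the 10 members, each of 300 bases (250 before to 50 after the start), the letters occurred in 4, belonging to *Plin2*, *Plin5* (a different site in each of its windows, at −170 to −165 and at 14 to 19 from their starts), and *Abhd5*. Among all 32851 windows in the table, 16.3% held them. No member window held a direct repeat of AGGTCA with 1 base between (in 0.0396% of all windows), CAAGGTCA, which contains AGGTCA (1.56%), or TGACGTCA (1.79%). These are matches of letters in a short window and do not show binding.

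Per kilobase of exon, *Plin2*, the perilipin found on droplets of most cell types, was the most abundant member in every group, with 89.3, 126, and 105 CPM per kb in LFD, HFD, and icosapent ethyl–treated mice. Its lowest mouse was above the highest mouse of the next member in each group. *Pnpla2* followed at 47.7, 60.3, and 59.3 CPM per kb, and *Plin1*, best known as the perilipin of adipocytes, came after it at 33.6, 41.9, and 33.7. *Pnpla2* and *Plin1* overlapped in LFD mice and were separate in the other groups. *Mgll* and *Plin3* came next, at 26.7 and 25.1 CPM per kb in LFD mice, and they overlapped each other in every group. *Plin4* was last, at 0.90, 2.21, and 2.01 CPM per kb. *Lipe* and *Plin5* exchanged ranks between the diets. In LFD mice *Plin5* had 18.2 and *Lipe* 9.41 CPM per kb without overlap, whereas in HFD mice *Lipe* had 17.5 and *Plin5* 15.6 and the mice overlapped.

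**Figure D1:**
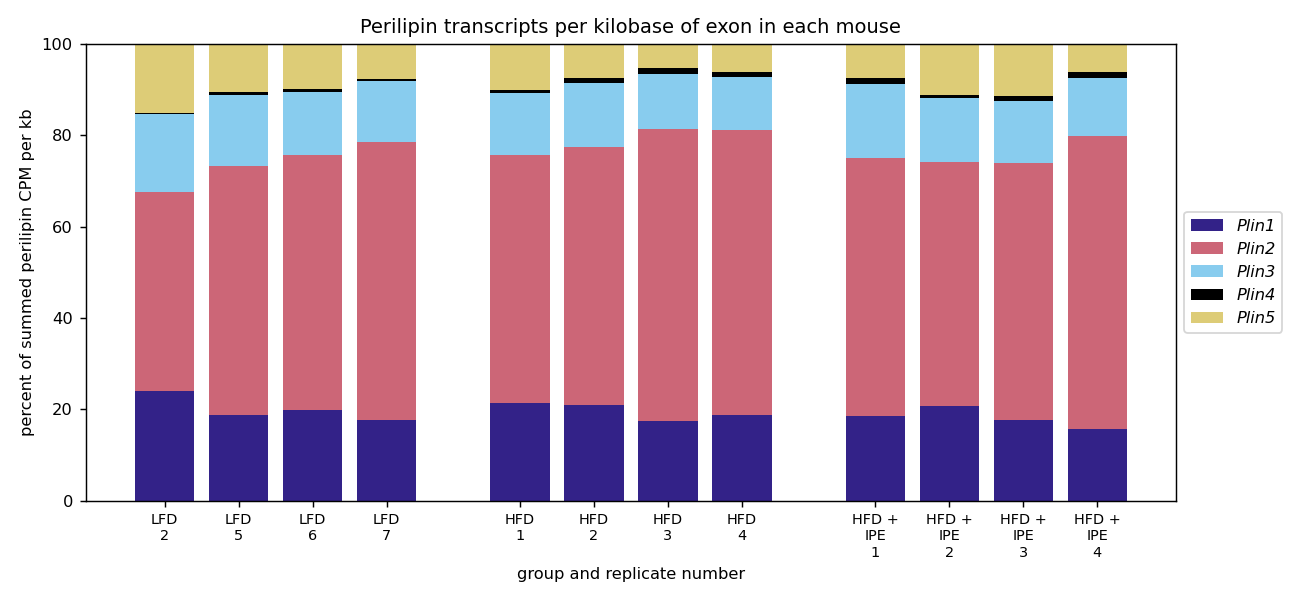
Share of the summed perilipin level (CPM per kb of exon, in percent) taken by each of *Plin1* to *Plin5*, with 1 bar per mouse, grouped by diet and labelled by replicate number (IPE, icosapent ethyl). *Plin2* takes the widest band in all 12 mice, from 43.7% in LFD replicate 2 to 64.1% in HFD replicate 3 and icosapent ethyl replicate 4, and *Plin4* the narrowest.

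As a share of the summed perilipin level per kb, *Plin2* made up 53.8% ± 7.25 in LFD, 59.4% ± 4.64 in HFD, and 57.6% ± 4.56 in icosapent ethyl–treated mice (SD, n = 4 each). *Plin1* took 20.01% ± 2.78 in LFD, 19.5% ± 1.89 in HFD, and 18.1% ± 2.09 in icosapent ethyl–treated mice. *Plin5* took 10.8% ± 3.12, 7.22% ± 2.06, and 9.02% ± 2.56 in the same order. *Plin4* was a small component, with 0.542% ± 0.145, 1.04% ± 0.209, and 1.12% ± 0.334, and its share in LFD mice was below that of every HFD mouse. The bar plot of perilipin shares shows that mice of 1 group also differed, with *Plin5* at 15.04% in LFD replicate 2 and 7.59% in LFD replicate 7.

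The comparison of HFD with LFD mice asked how a fat-rich diet changed the adrenal cortex. Here *Plin2*, *Plin4*, and *Lipe* rose in HFD mice, by 1.40-fold, 2.44-fold, and 1.84-fold, and the other 7 members did not pass the test. A member was called at an adjusted p below 0.05 in edgeR's quasi-likelihood fit over 15909 genes. Of all those genes, 1.45% were called in either direction and 0.974% were called higher, against 3 of the 10 members. Such shares describe the list and do not test it, because the members were chosen with earlier results of these data known. The paper had already named *Lipe* and *Plin4* among the genes raised by the HFD. The median log2 fold change was 0.36 over the members and −0.02 over all genes tested, and 9 of 10 members had a positive value.

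**Figure D2:**
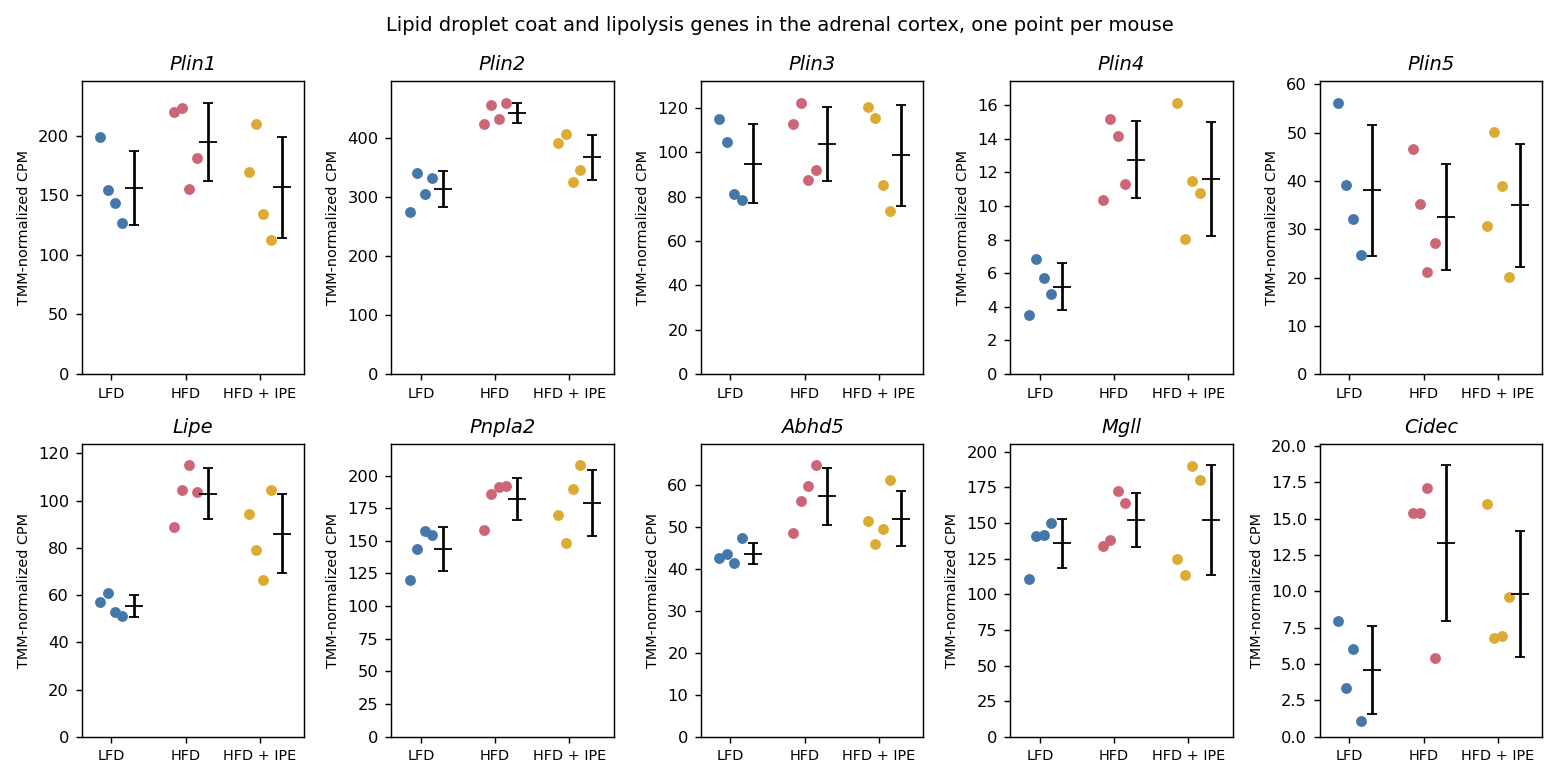
Level of each member in CPM after TMM normalization, with 1 point per mouse and the mean ± SD beside it (n = 4 per group, axes from 0). All HFD mice lie above all LFD mice for *Plin2*, *Plin4*, *Lipe*, *Pnpla2*, and *Abhd5*, and all icosapent ethyl–treated mice lie below all HFD mice for *Plin2* alone.

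The coat protein gene *Plin2* (ENSMUSG00000028494, chr4:86648386-86670060, minus strand, GRCm38) was at 275, 341, 305, and 333 CPM in LFD mice and at 424, 456, 432, and 459 CPM in HFD mice. Every HFD mouse was above every LFD mouse. The log2 fold change was 0.49 with a standard error (SE) of 0.0818, a 95% interval of 0.31 to 0.68, and an adjusted p of 0.0398. *Plin2* had the smallest fold of the 3 called members but also the smallest SE.

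*Plin4* (ENSMUSG00000002831, chr17:56100591-56109803, minus strand), which encodes a perilipin best known from white adipocytes and muscle, had 3.53, 6.81, 5.70, and 4.78 CPM in LFD mice and 10.4, 15.2, 14.2, and 11.3 CPM in HFD mice. The groups did not overlap, although the lowest HFD mouse had only 10.4 CPM. Its log2 fold change of 1.29 (SE 0.225, interval 0.78 to 1.79) had an adjusted p of 0.04. *Plin4* lies 1797 bases from *Plin5* on the same strand, yet *Plin5*, the perilipin of oxidative tissues, had 56.2, 39.3, 32.1, and 24.6 CPM in LFD and 46.5, 35.2, 21.2, and 27.2 CPM in HFD mice. The groups overlapped for *Plin5*, with a log2 fold change of −0.24 (SE 0.302, interval −0.92 to 0.44, adjusted p = 0.662), so its interval did not reach the fitted value of *Plin4*.

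Another perilipin of that stretch of chromosome 17, *Plin3*, is found in the cytosol and on nascent droplets and lies 159879 bases beyond *Plin5*. It had 115, 105, 81.3, and 78.7 CPM in LFD mice and 113, 122, 87.7, and 92.1 CPM in HFD mice. These ranges overlapped (log2 fold change 0.12, SE 0.163, adjusted p = 0.699). *Plin1* ranged from 127 to 199 CPM in LFD and from 155 to 223 CPM in HFD mice, with a log2 fold change of 0.31 (SE 0.171, interval −0.08 to 0.69, adjusted p = 0.295).

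*Cidec* encodes a protein that enlarges lipid droplets by fusion and is characteristic of adipocytes. It had 7.97, 3.36, 6.05, and 1.07 CPM in LFD and 15.4, 15.4, 17.1, and 5.43 CPM in HFD mice. HFD replicate 4 lay within the range of the LFD mice, and the other HFD mice were above it. The fitted change was the largest of all members, 1.51 on the log2 scale, but with an SE of 0.572 and an interval of 0.22 to 2.80 it did not pass (adjusted p = 0.154).

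**Figure D3:**
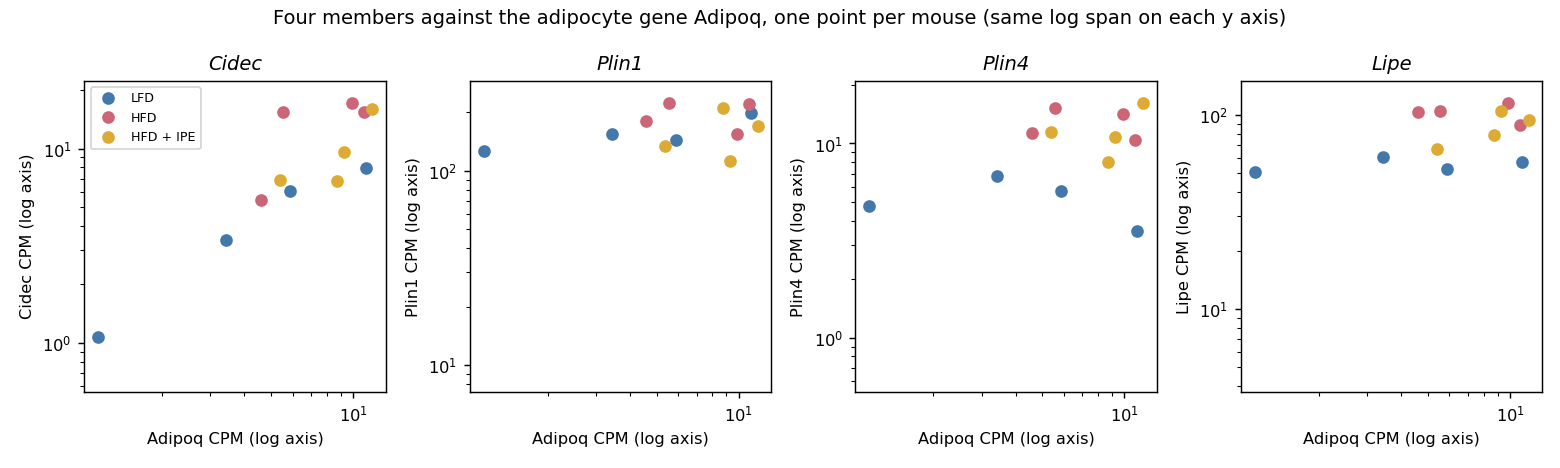
Levels of *Cidec*, *Plin1*, *Plin4*, and *Lipe* against that of the adipocyte gene *Adipoq* (both in CPM, log axes), with 1 point per mouse coloured by group. *Cidec* is lowest, at 1.07 CPM, in the mouse with the lowest *Adipoq* (LFD replicate 7, 1.16 CPM), where *Plin1* is still at 127 CPM and *Lipe* at 51.0 CPM.

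Because several members are adipocyte genes, they were set beside *Adipoq*, which encodes the adipocyte hormone adiponectin. *Adipoq* was at 11.1, 3.43, 5.88, and 1.16 CPM in LFD, 10.9, 5.55, 9.85, and 4.59 in HFD, and 11.7, 8.72, 5.39, and 9.27 CPM in icosapent ethyl–treated mice, and its diet difference did not pass (log2 fold change 0.49, SE 0.591, adjusted p = 0.645). None of the 8 white adipocyte markers was called. In HFD mice 4 had higher and 4 lower values (median 0.15), from −2.14 for *Cfd*, which encodes adipsin (adjusted p = 0.076), to 3.19 for *Lep*, which encodes leptin (adjusted p = 0.0603). The plot against *Adipoq* shows that *Cidec* was lowest in the mice with least *Adipoq* in both the LFD and the HFD group. Among icosapent ethyl–treated mice, *Adipoq* was lowest in replicate 3 but *Cidec* in replicate 2, at 6.77 CPM against 6.92 in replicate 3. Per count of *Adipoq*, *Cidec* had 0.719 to 1.03 counts in LFD, 1.18 to 2.77 in HFD, and 0.776 to 1.37 in icosapent ethyl–treated mice. *Plin1* had 18.0 to 109, 15.7 to 40.2, and 12.1 to 25.0 in the same order. For *Lipe* and *Plin4* every HFD mouse was above every LFD mouse, so both also stood higher at like levels of *Adipoq*. That follows from the separation and does not show the part of adipocytes. When the adipocyte markers entered the fit as their mean level, *Plin2*, *Plin4*, and *Lipe* remained called and *Abhd5* and *Cidec* were called too, but the genes called over the whole table also went from 230 to 1880 (11.8%). These markers did not move together, and in LFD mice *Acvr1c* was highest, at 96.1 CPM, where *Adipoq* was lowest. Their mean is not a clear measure of adipocytes, so this fit cannot decide the part of adipocytes in the differences. Chromaffin and macrophage markers were lower in HFD mice. All 6 chromaffin markers had negative values (median −1.24) with none called, and 4 of 8 macrophage markers were called lower (*Cd68*, *Cd5l*, *C1qa*, and *Lyz2*). When the chromaffin markers entered instead, no gene of the whole table was called, and the fitted changes of *Plin2*, *Plin4*, and *Lipe* were 0.40, 1.20, and 0.92. The 8 adrenocortical markers all had positive values (median 0.50) with none called. Their sum was 43620 to 72520 CPM in LFD and 57590 to 101700 CPM in HFD mice, and the groups did not overlap for *Cyp11b1*, which encodes 11β-hydroxylase, and *Mc2r*, which encodes the receptor of adrenocorticotropic hormone. The part of macrophages and of adrenocortical cells in the differences of the members was not tested.

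Among the lipases, *Lipe* (ENSMUSG00000003123, chr7:25379527-25398710, minus strand), which encodes hormone-sensitive lipase, had 57.0, 61.0, 52.7, and 51.0 CPM in LFD mice and 88.9, 104, 115, and 104 CPM in HFD mice. The groups stood well apart, and the lowest HFD mouse exceeded the highest LFD mouse by more than the range of the LFD mice. Its log2 fold change was 0.88 (SE 0.102, interval 0.65 to 1.11, adjusted p = 0.0293), and by its unadjusted p of 1.1e-05 it ranked 2 of all 15909 genes. A noncoding gene on the opposite strand, *4732471J01Rik*, shares 918 bases (15.6%) with the exons of *Lipe*, and the authors counted reads by strand. *Abhd5* has a like overlap on the opposite strand, of 950 bases (15.95%) with *A730085K08Rik*.

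*Pnpla2* encodes adipose triglyceride lipase, which takes the first fatty acid from triglyceride. It was at 120, 144, 157, and 155 CPM in LFD and 158, 186, 192, and 192 CPM in HFD mice. Here the highest LFD mouse and the lowest HFD mouse nearly met. The log2 fold change was 0.33 (SE 0.101, interval 0.10 to 0.56) with an adjusted p of 0.102. Its coactivator gene *Abhd5* was similarly separated, with 42.6, 43.5, 41.4, and 47.4 CPM against 48.6, 56.3, 59.9, and 64.7 CPM, and its log2 fold change was 0.38 (SE 0.0971, adjusted p = 0.074). In all, 5 of the 10 members had every HFD mouse above every LFD mouse, as did 7.71% of all genes tested. *Mgll*, which encodes monoacylglycerol lipase, was not among them. It had 111, 141, 141, and 150 CPM in LFD and 134, 138, 172, and 164 CPM in HFD mice, and its fitted change was 0.16 (SE 0.115, adjusted p = 0.427).

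**Figure D4:**
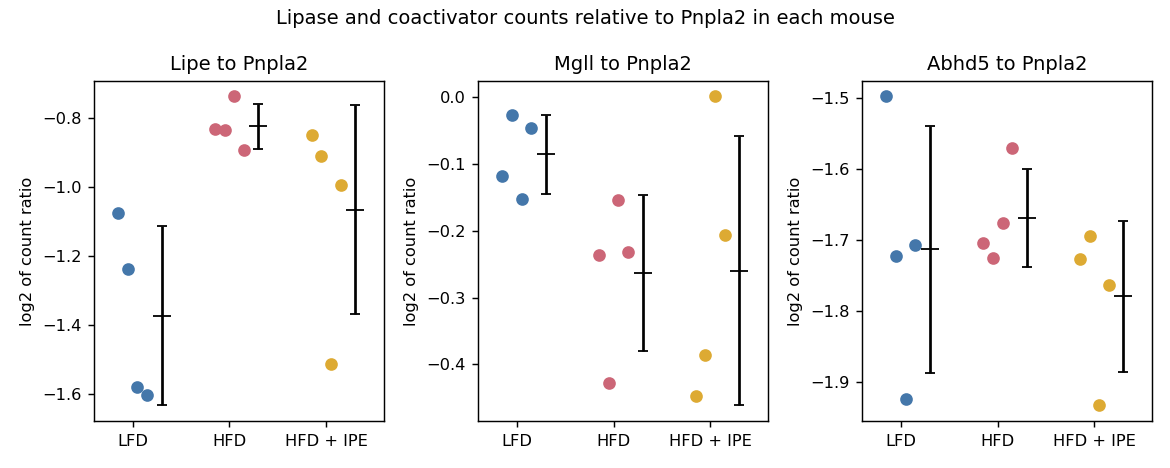
Log2 ratio of the counts of *Lipe*, *Mgll*, and *Abhd5* to those of *Pnpla2*, with 1 point per mouse and the mean ± SD beside it (n = 4 per group, each panel with its own axis). For *Lipe*, HFD mice lie between −0.89 and −0.74 and LFD mice between −1.60 and −1.08.

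Count ratios within a library do not depend on the scaling of the libraries, so 3 of them were compared between the diets. Relative to *Pnpla2*, *Lipe* was higher in HFD mice, with a log2 count ratio of −0.82 ± 0.0643 against −1.37 ± 0.259 in LFD mice (SD, n = 4 each, exact permutation test, two-sided p = 0.0286, the smallest that 4 against 4 mice allows, and 0.0429 after adjustment over the 3 ratios). The *Lipe* ratio was higher in 4 of 4 HFD mice than in any LFD mouse. *Mgll* moved the other way, from −0.09 ± 0.0595 in LFD to −0.26 ± 0.116 in HFD mice (exact permutation p = 0.0286, adjusted 0.0429), although the HFD mouse at −0.15 adjoined the lowest LFD mouse, also at −0.15. The ratio of *Abhd5* to *Pnpla2* was −1.71 ± 0.174 in LFD and −1.67 ± 0.0688 in HFD mice, a difference of 0.04 (exact permutation p = 0.686). The dot plot of the ratios also shows that icosapent ethyl replicate 3 was low for *Lipe*, at −1.51, where the other mice of its group lay between −0.99 and −0.85.

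The calls depended on which mice entered the fit. Without LFD replicate 2 only *Lipe* was called among the members, and without any 1 of HFD replicates 2, 3, and 4 or LFD replicates 5, 6, and 7, no gene of the table was called, while the log2 fold changes stayed within 0.44 to 0.53 for *Plin2*, 1.14 to 1.44 for *Plin4*, and 0.84 to 0.95 for *Lipe*. DESeq2 on all 8 mice called these 3 members and also *Abhd5* (adjusted p = 0.0184) and *Cidec* (adjusted p = 0.0377), where it called 2049 genes, 12.9% of those tested.

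Other genes of the pathway, in lists also chosen with earlier results known, were read from the same fit. Of 18 further lipid droplet protein genes, 15 could be tested and 2 rose, against the background of 0.974% given above. They were *Fitm2*, which encodes a protein of the endoplasmic reticulum needed for droplet formation, from 69.4 ± 7.27 to 121 ± 17.3 CPM (log2 fold change 0.80, SE 0.116, adjusted p = 0.0376), and *Faf2*, which encodes a ubiquitin-binding protein known to restrain adipose triglyceride lipase, from 80.9 ± 3.53 to 105 ± 4.71 CPM (0.36, SE 0.0692, adjusted p = 0.0456). None fell, and the median over the 15 genes was −0.01. Of 15 other neutral lipid hydrolase genes, 12 were tested and none was called, although 10 had positive values (median 0.12). All HFD mice lay above all LFD mice for 2 of the 12 and below them for 1, against 7.71% and 5.81% of all genes. Of these 2, *Nceh1* went from 360 ± 24.4 to 467 ± 35.4 CPM (log2 fold change 0.37, SE 0.0855, adjusted p = 0.062). The largest values among the hydrolases were −0.69 for *Dagla*, which encodes a diacylglycerol lipase (adjusted p = 0.104), and 0.67 for *Pnpla3*, a relative of *Pnpla2* (adjusted p = 0.456).

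**Figure D5:**
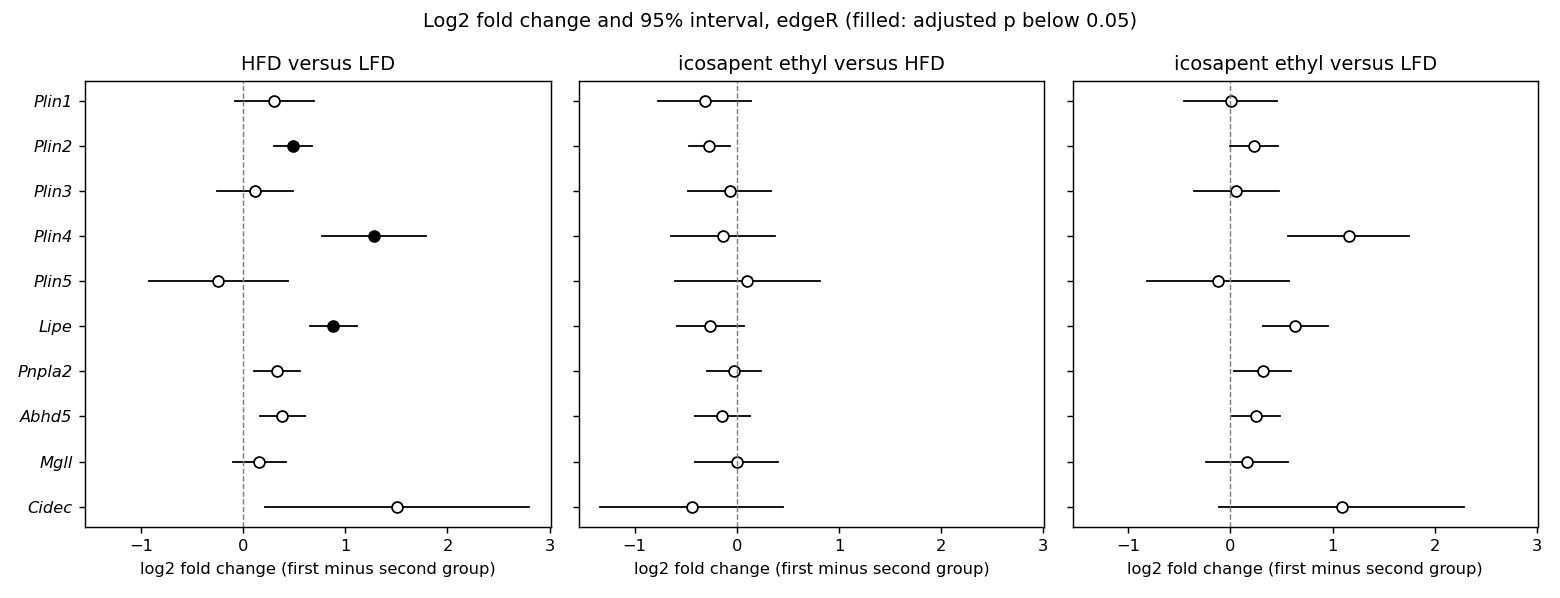
Log2 fold change of each member (points) with its 95% interval (lines) in the 3 comparisons, from edgeR, with filled points for an adjusted p below 0.05. *Plin2*, *Plin4*, and *Lipe* are filled for HFD versus LFD mice, and no point is filled in the comparisons with icosapent ethyl–treated mice.

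The second comparison asked what icosapent ethyl changed in mice on a HFD. No member passed the test, and none of the 15913 genes tested did (0%), while 1.39% had an unadjusted p below 0.05, *Plin2* alone among the members. DESeq2 called 6 genes in this comparison and no member. The paper, which compared the groups with DESeq2, had named *Plin2* among the genes lowered by icosapent ethyl. No fit made here called it. *Plin2* was at 392, 407, 326, and 346 CPM in icosapent ethyl–treated mice. All 4 were below all 4 HFD mice, a separation in this direction that 0.660% of all genes showed and no other member did. The log2 fold change of *Plin2* was −0.27 (SE 0.0888, interval −0.47 to −0.07), with an unadjusted p of 0.0148 and an adjusted p of 1 in edgeR.

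*Lipe* had 94.5, 79.0, 66.5, and 104 CPM with icosapent ethyl, and only replicate 4 reached the middle of the HFD range. Its difference from HFD mice was −0.26 (SE 0.144, interval −0.58 to 0.07). *Plin4* was at 16.1, 8.01, 11.5, and 10.8 CPM, from below to above the HFD range, with a difference of −0.13 (SE 0.225, interval −0.65 to 0.38). *Cidec* spread over most of the HFD range, with 16.02, 6.77, 6.92, and 9.61 CPM and a difference of −0.44 (SE 0.395, interval −1.34 to 0.46).

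The remaining members also overlapped between HFD and icosapent ethyl–treated mice. *Plin1* had 170, 210, 135, and 113 CPM with icosapent ethyl (log2 fold change −0.31, interval −0.77 to 0.14), and *Plin3* 120, 116, 85.3, and 73.8 CPM (−0.07, interval −0.48 to 0.33). *Plin5* had 30.7, 50.2, 38.9, and 20.02 CPM and was the only member with a positive value (0.10, interval −0.60 to 0.81). For *Pnpla2*, with 170, 149, 190, and 208 CPM, the interval was −0.29 to 0.24, for *Abhd5*, with 51.4, 45.9, 49.7, and 61.2 CPM, it was −0.41 to 0.13, and for *Mgll*, with 125, 114, 190, and 180 CPM, it was −0.40 to 0.40. Differences within these intervals could not be told from 0 with 4 mice per group. The median over the 10 members was −0.14. None of the 15 further droplet protein genes tested was called, with *Cidea* (−0.74) and *Aqp7* (−0.36) the farthest from 0, and none of the 12 hydrolase genes, with *Pnpla3* (−0.66) and *Dagla* (0.38) the farthest.

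Set against LFD mice, icosapent ethyl–treated mice again had no called member, and no gene of 15935 was called (0%), although 14.0% had an unadjusted p below 0.05, among them *Plin4*, *Lipe*, *Pnpla2*, and *Abhd5*. DESeq2 called 477 genes, including *Plin4* and *Lipe*. The 3 comparisons share their mice in pairs, the HFD mice between the first and second, so the results are not independent of each other. *Plin4* and *Lipe* had every icosapent ethyl–treated mouse above every LFD mouse, which held for 4.04% of all genes. *Plin4* was higher by 1.16 (SE 0.262, interval 0.57 to 1.75, adjusted p = 0.187) and *Lipe* by 0.64 (SE 0.140, interval 0.32 to 0.95, adjusted p = 0.184) on the log2 scale, which for neither passed. The value of *Plin2* was 0.23 (interval −0.0033 to 0.46, adjusted p = 0.363), and those of *Pnpla2* and *Abhd5* were 0.31 (adjusted p = 0.328) and 0.25 (adjusted p = 0.341). *Cidec* had a value of 1.09 with a wide interval of −0.11 to 2.29. *Plin1*, *Plin3*, *Plin5*, and *Mgll* lay between −0.12 and 0.16. Of the other pathway genes, 0 of 14 droplet protein genes and 0 of 13 hydrolase genes were called, and those farthest from 0 were *Cidea* (−1.18), *Fitm1* (−1.03), *Lpl* (−0.45), and *Ces1d* (0.41).

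The genes whose levels were most like those of *Plin1*, *Plin2*, and *Lipe* were sought among 13474 genes with a mean of at least 1 CPM, by Pearson's r of log2 CPM over the 12 mice. For *Lipe* they were *Knop1* (r = 0.977), *Ndufaf4* (0.972), and *Slc35f5* (0.966). *Plin2* was most like *Usp4* (0.946), *Vti1a* (0.937), and *Ints7* (0.935), and *Plin1* most like *Polr2b* (0.916), *Lasp1* (0.914), and *Tmem216* (0.911). No gene is in more than 1 of these lists, and neither *Plin1*, *Plin2*, nor *Lipe* had another member among its 3 genes. The 12 mice include the diet groups, and the highest of 13474 values is high by selection, so these values describe the mice and carry no test.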

How the data were processed

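Libraries were prepared from adrenal cortex RNA of 12 mice. The authors trimmed reads with cutadapt, aligned them to GRCm38 with STAR, counted them on GENCODE M12 genes by strand with HTSeq (0.6.1p1 in the submitters' processing notes), and deposited raw counts per gene and mouse. Symbols and coordinates for 49326 of 49585 genes came from GENCODE M21, and promoters from RefSeq. Groups and replicate numbers were taken from the labels, which do not say whether mice shared a cage or day.

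Each pair of groups was fitted with edgeR 4.0.16 in R 4.3.3 (TMM, filterByExpr at a minimum count of 10, robust quasi-likelihood test, Benjamini-Hochberg adjustment over all genes tested). TMM factors were 0.883 to 1.14. SE was the absolute log2 fold change divided by the root of F, and intervals used the total degrees of freedom of the fit. Levels per kb used the union of exons, 1856 to 5956 bases. Log2 CPM used a prior count of 2. Library copies were looked for in 66 pairs and none was found (lowest chi-square per degree of freedom 24.5). The procedure was tested on simulated data.

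The members, pathway lists (named where called, otherwise the 2 largest values), likeness rule, and markers were chosen with earlier results of these data known. Alternatives were DESeq2 1.42.0, its size factors, library totals, a threshold of 0.1, fits without a filter, with at least 10 counts required in each mouse, and with the 3 groups together, a covariate of adipocyte markers (mean log2 CPM), and omission of 1 mouse at a time. The chromaffin covariate, the counts per *Adipoq* count, the order of mice by *Plin5*, and the naming of *Nceh1* were chosen after the data were seen. HFD and icosapent ethyl–treated mice are both numbered 1 to 4. Deviations of same-numbered mice correlated at 0.254, 0.122, 0.354, and 0.654, so by a rule of more than 0.1 in every pair the number was also fitted as a block, although the labels do not say that the numbers are pairs and mice of different numbers reached 0.621. Between LFD and HFD mice the number 2 alone is shared, so no block was fitted. Lipid and plasma measurements of the study were not analysed here.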

Additional observations from a re-analysis of the deposited data

Results flagged for a closer look

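*Cidec* in HFD replicate 4 stood apart from its group. This mouse had 5.43 CPM, and the others had 15.4, 15.4, and 17.1 CPM, so that its gap to the nearest mouse was 0.85 of the range of the group, above the critical value of Dixon's test for 4 samples. The same mouse had the lowest *Adipoq* of the HFD group, 4.59 CPM. Of the 30 sets of 4 values checked (10 members in 3 groups), this was the only one past the critical value, and chance gives about 5% of sets.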

How the results depend on the processing

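Of the members, 3 were called between HFD and LFD mice. That count was 5 by DESeq2 and 5 with the adipocyte covariate (*Abhd5* and *Cidec* added in both), while the share of all genes called went from 1.45% to 12.9% and 11.8%. It was 1 with library totals in place of TMM (*Lipe*, with 0.528% of all genes called and their median log2 fold change at −0.11), where *Plin4* had 1.19 (adjusted p = 0.0575) and *Plin2* 0.39 (adjusted p = 0.0661), and 0 with the chromaffin covariate (0% of all genes). Leaving out 1 mouse gave 0 to 4 called members, with 4 without HFD replicate 1 (5.70% of all genes), 1 without LFD replicate 2 (*Lipe*), and 0 without any other mouse. Icosapent ethyl–treated versus HFD mice had 0 in every setting, with 0 under the replicate block, which changed no call, and the block was not fitted elsewhere. Icosapent ethyl–treated versus LFD mice had 2 by DESeq2 (*Plin4* and *Lipe*) and otherwise 0. The ratio differences between the diets ranged over 0.47 to 0.65 (*Lipe*), −0.21 to −0.12 (*Mgll*), and −0.0263 to 0.12 (*Abhd5*) when a mouse was left out, and each such fit gave an adjusted p of 0.0857 by the exact permutation test for *Lipe* and *Mgll*. Signs turned for the *Abhd5* ratio and for the changes below, none of which passed the test in its own comparison. Between the diets this was *Plin5* (0.0845 with the chromaffin covariate, −0.47 to 0.0236 with a mouse left out). Between icosapent ethyl–treated and HFD mice, it was *Pnpla2* (0.0333 library totals, 0.0078 adipocyte and 0.0419 chromaffin covariate), *Mgll* (0.0549 library totals, 0.0033 stricter filter, 0.0433 adipocyte and 0.014 chromaffin covariate), and *Plin5* (−0.0725 chromaffin covariate), and with a mouse left out *Plin3* (−0.18 to 0.0458), *Plin4* (−0.33 to 0.0059), *Plin5* (−0.12 to 0.33), *Pnpla2* (−0.10 to 0.0556), and *Mgll* (−0.12 to 0.12). Against LFD mice, it was *Plin1* (−0.0383 library totals, −0.16 adipocyte covariate, −0.17 to 0.14 with a mouse left out), *Plin3* (−0.0842 adipocyte covariate, −0.051 to 0.18), and *Plin5* (0.26 chromaffin covariate, −0.35 to 0.13). The causes were not tested. The lowest counts were 45 for *Cidec* and 188 for *Plin4*, and the other members had at least 871.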

Other observations

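*Plin5* and *Nr5a1* ran in opposite orders over most mice of a group. Within LFD mice its order from high to low was replicates 2, 5, 6, and 7 (56.2, 39.3, 32.1, and 24.6 CPM), and *Nr5a1*, which encodes the transcription factor SF-1 of steroidogenic cells, ran exactly opposite (319, 681, 767, and 1161 CPM). Within HFD mice, too, the order of *Plin5* (replicates 1, 2, 4, and 3) was the reverse of that of *Nr5a1* (628, 655, 1204, and 1261 CPM). In icosapent ethyl–treated mice *Plin5* was highest in replicate 2 and lowest in replicate 4, where *Nr5a1* was lowest (491 CPM) and highest (1254 CPM), and replicates 1 and 3 were out of order. The pattern was not particular to *Plin5*. *Plin1* and *Plin3* ran exactly opposite to *Nr5a1* in LFD mice, and *Plin1* did so in icosapent ethyl–treated mice. In HFD mice both were higher in replicates 1 and 2, which had less *Nr5a1*, than in replicates 3 and 4. So was *Plin3* in icosapent ethyl–treated mice. *Pnpla2*, in contrast, was lowest in the mouse with the least *Nr5a1* in each of the 3 groups. Not every adrenocortical marker followed *Nr5a1*, and *Hsd3b1* was lowest in icosapent ethyl replicate 3 of its group (13690 CPM). The pattern was noticed in these data and was not tested.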
